A study of Homo sapiens with 22 samples.

Results

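The cytosolic ribosomal protein genes were taken as the protein-coding genes on chromosomes 1 to 22 and X whose symbol is RPL or RPS followed by digits and at most a single A, L or X, together with RPLP0, RPLP1, RPLP2 and RPSA, and without the S6 kinase genes. This rule found 81 of 19974 protein-coding genes, 49 for the large and 32 for the small ribosomal subunit. It used gene symbols alone and no measured value. The members lie on 21 of 23 chromosomes, with 12 on chromosome 19, and no peak was shared between members.

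Each cytosolic ribosome carries a single copy of nearly every ribosomal protein, and growing cells keep these genes transcribed at a high rate, so that they often serve as a reference set of active promoters. Their messenger RNAs typically begin with a C followed by a run of pyrimidines, the 5′ terminal oligopyrimidine (TOP) tract, through which mTOR signalling controls their translation. Trimethylation of histone H3 lysine 4 (H3K4me3) marks promoters that are active or poised, acetylation of lysine 27 (H3K27ac) marks active promoters and enhancers, monomethylation of lysine 4 (H3K4me1) is typical of enhancers, and trimethylation of lysine 27 (H3K27me3) is laid down by Polycomb repressors.

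The data come from CUT&RUN, in which an antibody directs a nuclease to chromatin and the released fragments are sequenced as 25 bp paired reads. A liquid-handling robot processed 250000 to 500000 cells per library of A673 and CHLA10, which are established Ewing sarcoma cell lines. Peak lists of 18 libraries were used: for each of the 4 histone marks 2 libraries per line, from cells with the label shNS, and for the homeobox factor HOXD13 a single library per line, from cells without that label. Antibodies were used at 1 in 20 (HOXD13), 1 in 50 (H3K27ac) and 1 in 100 (the other histone marks). The labels do not say whether replicates came from separate cultures, so the spread between them may be technical. No RNA values were used, so the activity of the members in these cells was not measured, and the share of them with an H3K27ac peak is read as a description of each H3K27ac library.

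The promoter sequences below are shown because they belong to members at the opposite ends of the H3K27ac results. RPL19, RPL41 and RPS14 had the highest mean rank of H3K27ac among members marked in all 4 libraries, and RPS21, RPS7 and RPS24 had H3K4me3 in all 4 libraries and H3K27ac in none. The rank used the strongest peak at either gene boundary, which need not lie at the printed promoter. At RPS14 the peak of A673 replicate 1 had its summit 7610 bp downstream of the start. Each runs 5′ to 3′ from 120 bases before the listed transcription start to 20 bases from it, from RefSeq on GRCh38.p14. Capitals mark the longest run of C and T that comes within 3 bases of the listed start, on either side, and every CCGGAA or its reverse complement TTCCGG, the core that ETS factors bind.

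RPL19: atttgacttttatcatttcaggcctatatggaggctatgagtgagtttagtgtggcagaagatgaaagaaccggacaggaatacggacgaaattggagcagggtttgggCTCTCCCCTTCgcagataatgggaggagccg
RPL41: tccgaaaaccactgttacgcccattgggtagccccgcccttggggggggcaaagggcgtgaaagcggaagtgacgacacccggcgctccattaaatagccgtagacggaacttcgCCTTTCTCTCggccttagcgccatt
RPS14: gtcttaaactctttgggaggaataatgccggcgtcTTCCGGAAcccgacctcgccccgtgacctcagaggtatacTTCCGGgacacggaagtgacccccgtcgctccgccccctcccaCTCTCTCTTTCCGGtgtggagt
RPS21: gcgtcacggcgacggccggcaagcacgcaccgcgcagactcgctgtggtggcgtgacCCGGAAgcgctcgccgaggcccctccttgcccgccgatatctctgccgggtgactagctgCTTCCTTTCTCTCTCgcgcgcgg
RPS7: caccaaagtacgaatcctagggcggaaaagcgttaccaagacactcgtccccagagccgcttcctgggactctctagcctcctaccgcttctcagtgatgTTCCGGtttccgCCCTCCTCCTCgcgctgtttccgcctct
RPS24: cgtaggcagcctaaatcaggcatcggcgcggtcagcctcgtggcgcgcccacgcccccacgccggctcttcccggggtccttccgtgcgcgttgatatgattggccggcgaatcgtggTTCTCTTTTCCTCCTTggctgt

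These stretches lie at chr17:39200163-39200302 (RPL19, plus strand), chr12:56116513-56116652 (RPL41, plus strand), chr5:150449720-150449859 (RPS14, minus strand), chr20:62386983-62387122 (RPS21, plus strand), chr2:3575140-3575279 (RPS7, plus strand) and chr10:78033743-78033882 (RPS24, plus strand). All 6 carry an uninterrupted run of C and T at or next to the start, 11 bases long at RPL19, 10 at RPL41, 12 at RPS14, 15 at RPS21, 11 at RPS7 and 16 at RPS24. Run length is that of the whole run and is not counted from the start: with 1 for the first base of the start, the run covers -2 to 10 at RPS14, -3 to 12 at RPS21 and -2 to 14 at RPS24. It covers -5 to 5 at RPL41 and -8 to 3 at RPS7, and at RPL19 it lies wholly before the listed start, from -11 to -1. The members with the highest H3K27ac rank and those without H3K27ac do not separate by this run. RPS14 holds CCGGAA 4 times over both strands, a pair of them overlapping, RPS21 and RPS7 hold it once each, and the stretches of RPL19, RPL41 and RPS24 do not hold these letters.

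Over the 64 members with a promoter in the RefSeq table (250 bases before to 50 after the start), 47 (73.4%) had such a run of at least 6 C or T bases, against 18.6% of all 15812 promoters of that length. The median run was 10.5 bases in the members and 3 in all promoters, and a C was the first base of 71.9% of members and 11.3% of all. The longest runs were at RPL7A (25 bases), RPL39 (22 bases) and RPL34 (18 bases). The ETS core CCGGAA was in 54.7% of member promoters and 22.8% of all. The 8-letter string AAGATGGC, found in sites of the zinc-finger factor YY1, was in 9.38% and 3.91%, and CACGTG, the E-box that MYC binds, in 4.69% and 8.87%. TATAAA was in 9.38% and 9.64%, and a pair of adjacent GGAA repeats (GGAAGGAA), the letters bound by EWS-FLI1, in 3.13% and 3.55%, so both stood at the level of all promoters. All motifs were searched on both strands, and CCGGAA can overlap GGAAGGAA. Members not in that table include RPL3L, RPL5, RPL7, RPL8, RPL23, RPL23A, RPL30, RPL37, RPL39L, RPS2, RPS15A and RPS20.

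The members are short genes, with a median length of 5015 bp and a range of 772 to 27723 bp, against 24170.5 bp over all protein-coding genes. Small nucleolar RNA (snoRNA) genes, which guide the modification of ribosomal RNA and are often processed from introns of host genes, lay inside 29 members (35.8%) and inside 2.63% of all genes. A neighbouring gene has a boundary within 1 kb of 30 members, so a peak counted there can belong to the neighbour.

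The histone lists held 17909 to 106770 peaks each, and the H3K27ac lists 40470 and 47393 in A673 and 39740 and 24293 in CHLA10. The lists give no read counts, so the depth behind a peak is unknown, and heights are compared as percentiles within a list, where 100 is its highest −log10 q value. As a check of the labelled cell type, 9 Ewing sarcoma marker genes were read, among them NKX2-2, NR0B1 and CD99. All had H3K4me3 in all 4 libraries, as did 61.2% of all genes. They had H3K27ac in 0 to 2 of 4 libraries, and NKX2-2 and CD99 were among those with none. Of markers of other cell types, MYOD1, CDH1 and EPCAM had H3K4me3 in 2 libraries each, PTPRC, CD3E, CDH5, PECAM1 and ALB had none, and none of these 8 had H3K27ac in any library.

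H3K4me3 was found at 80 of 81 members in every library of both lines. A gene counted as marked when a peak overlapped by at least 1 bp the 1 kb on either side of a gene boundary, and the same rule marked 65.3% and 65.1% of all genes in the A673 libraries and 65.3% and 65.0% in the CHLA10 libraries. The exception was RPL10L (chr14:46651010-46651781), a gene without introns that encodes the testis paralog of RPL10, where the nearest H3K4me3 peak lay 536.6 to 1023 kb away. At the listed start alone, 62 of 64 members were marked, against 66.8%, 66.6%, 67.0% and 66.8% of all genes with a listed start. The other member without a peak there was RPL6, whose gene boundary had H3K4me3 in all 4 libraries. No member had H3K4me3 in 1 line only, which held for 1.96% of genes in A673 and 1.98% in CHLA10. In the upper 50% of each list by −log10 q, H3K4me3 was left at 67.9% and 76.5% of members in A673 and at 95.1% in each CHLA10 library. At that cut 13 members had it in CHLA10 only, and the share over all genes was not computed.

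**Figure D1:**
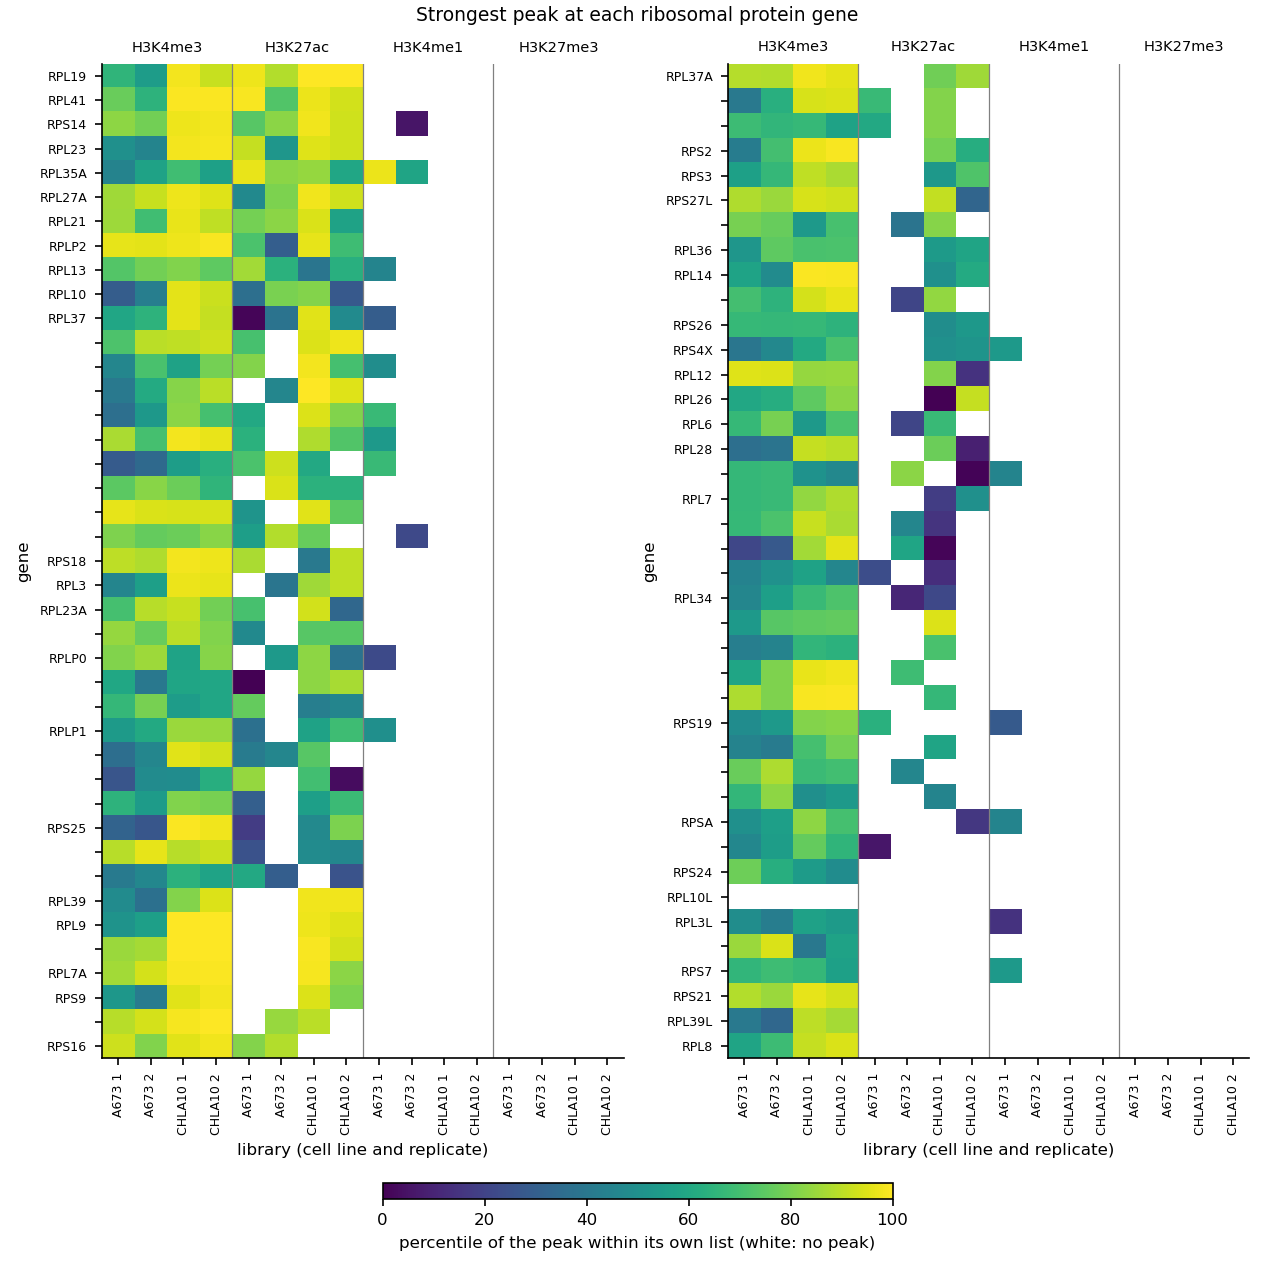
Strongest peak at each of the 81 members (vertical axis, labelled where the text names the gene, ordered by the number of libraries with H3K27ac and then by its mean percentile) in the 16 histone mark libraries (horizontal axis). Colour is the percentile of the peak's −log10 q within its own list, from 0 to 100, and white means no peak; H3K4me3 is filled for 80 members, H3K27ac thins out down the order, and H3K27me3 is empty.

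The H3K4me3 peaks of the members ranked higher in their lists in CHLA10 than in A673. The median percentile of a member's strongest H3K4me3 peak was 65.1 and 67.1 in the A673 libraries and 85.6 and 87.0 in the CHLA10 libraries. In the 12144 other genes with H3K4me3 in all 4 libraries the medians were 67.7 and 68.8 in A673 and 73.2 and 73.1 in CHLA10. The percentile was higher in both CHLA10 libraries than in both A673 libraries at 55 of 80 members (45.3% of all 12224 genes with H3K4me3 in all 4), and higher in both A673 libraries at 9 members (27.2% of those genes).

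Members moved unevenly in this rank. RPS25, a protein of the small subunit, was at the 31.9 and 26.6 percentile in A673 and at 99.4 and 97.99 in CHLA10. RPL9, a protein of the large subunit, stood at 51.5 and 56.4 in A673 and at 99.8 and 99.9 in CHLA10. RPLP2, which encodes an acidic protein of the stalk that engages elongation factors, was high throughout, at 96.3 and 95.9 in A673 and 97.3 and 98.9 in CHLA10. RPS25 and RPL9 were chosen after their values were seen.

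H3K4me3 at the members extended further downstream of the start in A673 than in CHLA10, the opposite order to that of the rank. Reach was counted in bases from the start and can run past the end of a short gene. The peak over the start reached a median of 2987.5 and 2849.5 bp downstream in the A673 libraries (62 members each) and 2073.5 and 2197 bp in the CHLA10 libraries (62 and 61 members). Other genes reached 1564 and 1539 bp in A673 and 1429 and 1469 bp in CHLA10. A reach of at least 2000 bp was found at 54 and 51 members in A673 and at 33 and 38 in CHLA10, where all genes with a peak over the start gave 29.7%, 27.5%, 25.5% and 27.2%. Of 61 members with a peak over the start in all 4 libraries, 41 reached further in both A673 libraries (33.7% of all 9031 such genes) and 3 further in both CHLA10 libraries (24.5% of them). The median difference, A673 mean minus CHLA10 mean, was 551 bp in the members and 37 bp in the 8970 other genes.

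The longest A673 reach was at RPS18, a protein of the small subunit head, with 5799 and 5443 bp in A673 and 3819 and 3816 bp in CHLA10. The gene is 4437 bp long, so its A673 peaks ran past its end, and VPS52 and B3GALT4 have boundaries within 1 kb. RPL13, of the large subunit, had the largest difference, with 4959 and 3218 bp against 1929 and 2089 bp. RPL41, the shortest ribosomal protein, was among the exceptions, with 3030 and 2968 bp in A673 and 3626 and 3404 bp in CHLA10. At RPS19, the gene most often mutated in Diamond-Blackfan anaemia, the peak over the listed start ended 10 and 36 bp after it in A673 and 1578 and 37 bp after it in CHLA10. These 4 members were chosen after their values were seen. The whole peak, counted at either boundary, was longer in both A673 libraries at 47 of 80 members (33.8% of all genes with H3K4me3 in all 4) and in both CHLA10 libraries at 7 (27.3%).

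**Figure D2:**
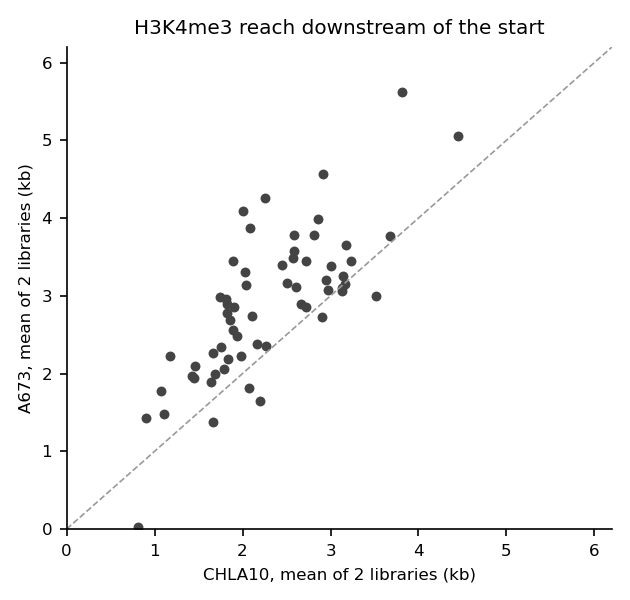
Distance from the listed transcription start to the downstream end of the H3K4me3 peak over it, in kb, as the mean of the 2 CHLA10 libraries (horizontal axis) and of the 2 A673 libraries (vertical axis). Each point is 1 of the 61 members with such a peak in all 4 libraries, and most lie above the dashed line of equality.

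H3K27ac was called at fewer members than H3K4me3, and at fewer in A673 than in CHLA10. The 2 A673 libraries marked 36 of 81 members (44.4%, exact Clopper-Pearson 95% interval 33.4 to 55.9) and 30 (37.0%, 26.6 to 48.5), where all protein-coding genes gave 17.1% and 18.7%. The CHLA10 libraries marked 65 (80.2%, 69.9 to 88.3) and 50 (61.7%, 50.3 to 72.3), where all genes gave 30.7% and 20.9%. The intervals cover counting error alone. The mean was 40.7% ± 5.24 (SD, n = 2) in A673 and 71.0% ± 13.1 (SD, n = 2) in CHLA10, and both CHLA10 libraries were above both A673 libraries. Since 0.33 is the smallest p an exact permutation test can give for 2 libraries against 2, the lines were not tested against each other. The length of the lists did not follow this order, since the CHLA10 list with 24293 peaks marked more members than the A673 lists with 40470 and 47393. The names of the CHLA10 histone lists mark a processing step, "kept", that those of A673 do not, so the line and this difference in processing cannot be told apart in any comparison of A673 with CHLA10.

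The same order of lines was found among all genes with H3K4me3 and in 4 sets of related function. Among the 80 members with H3K4me3 in all 4 libraries, H3K27ac was called at 45.0% and 37.5% in A673 and 81.3% and 62.5% in CHLA10, where all 12224 such genes gave 21.0%, 23.1%, 46.5% and 31.7%. Of 77 mitochondrial ribosomal protein genes, 24 and 17 were marked in A673 and 47 and 36 in CHLA10. Of 37 translation factor genes the counts were 9 and 17, then 27 and 19. Of 34 ribosome assembly genes they were 6 and 12, then 23 and 16, and of 31 proteasome genes 7 and 10, then 21 and 14. The members had a higher share than these 4 sets in each library except A673 replicate 2. There translation factors stood at 45.9% (29.5 to 63.1) against 37.0%. The intervals of members and translation factors overlapped in every library. In A673 replicate 1 the member interval was 33.4 to 55.9. Those of mitochondrial ribosomal protein (21.1 to 42.7), proteasome (9.59 to 41.1) and ribosome assembly genes (6.76 to 34.5) overlapped it too. The intervals of these sets also overlapped that of the members in the other libraries. The members were not tested against these sets. Of 7 ribosomal protein genes and paralogs outside the symbol rule, 5 and 3 were marked in A673 and 5 and 4 in CHLA10, so this small set did not show the order.

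Genes that are silent in most cells did not show that order. Of 390 olfactory receptor genes, 6 and 11 had an H3K27ac peak in A673 and 2 in each CHLA10 library. Annotated ribosomal protein pseudogenes, 1962 copies whose sequence is close to that of the members, were marked at 4.23% and 5.35% in A673 and 3.62% and 1.94% in CHLA10. The counts were thus higher in A673 in both sets, though the intervals overlapped between every A673 and CHLA10 library for the olfactory receptors, and between both A673 libraries and CHLA10 replicate 1 for the pseudogenes.

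**Figure D3:**
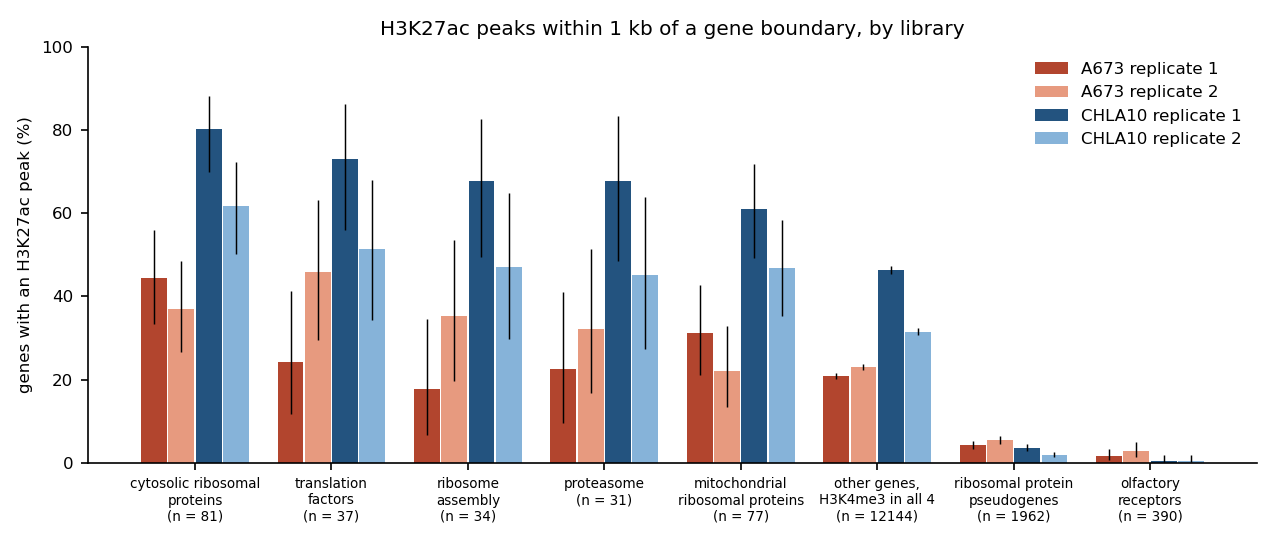
Share of genes with an H3K27ac peak within 1 kb of a gene boundary (vertical axis, %) in 8 gene sets (horizontal axis) and 4 libraries (colours). Error bars give the 95% interval for counting error (Clopper-Pearson); the members stand at 44.4% and 37.0% in A673 and at 80.2% and 61.7% in CHLA10.

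The strongest H3K27ac peaks of each list were also found at more members in CHLA10. Among the 10000 strongest, 11 and 12 members were marked in A673 and 37 and 32 in CHLA10, while all protein-coding genes gave 6.34%, 6.79%, 11.7% and 10.3%. Of the 390 olfactory receptor genes, 1, 2, 1 and 1 were marked at that rank. Where a member was marked, the median percentile of its strongest peak was 63.7 and 61.4 in A673 and 81.3 and 69.0 in CHLA10, against 64.3, 69.0, 64.5 and 58.5 in the other genes with H3K4me3 in all 4 libraries. So the median rank of marked members was close to that of the other marked genes in A673 replicate 1 (63.7 and 64.3). It was lower in A673 replicate 2 and higher in both CHLA10 libraries.

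**Figure D4:**
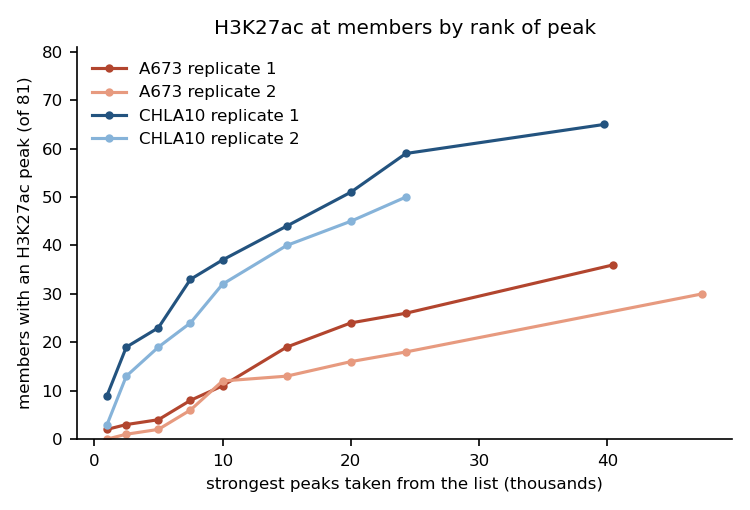
Members with an H3K27ac peak, of 81 (vertical axis), against the number of strongest peaks taken from each list by −log10 q (horizontal axis), for the 4 libraries. At 10000 peaks the CHLA10 libraries reached 37 and 32 members and the A673 libraries 11 and 12.

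At the transcription start itself the lines lay further apart. Of the 64 members with a listed start, H3K27ac within 1 kb of it was called at 21 and 15 in A673 (11.2% and 12.9% of all genes with a listed start) and at 52 and 42 in CHLA10 (29.6% and 19.8%). The mean share was 28.1% ± 6.63 (SD, n = 2) in A673 and 73.4% ± 11.0 (SD, n = 2) in CHLA10. A further 10 and 9 members were marked in A673 at the far end of the gene only (7.07% and 6.89% of all genes with a listed start), and 1 in each CHLA10 library (4.34% and 3.29%). With windows of 2.5 kb the highest A673 share was 59.3% and the lowest CHLA10 share 65.4%.

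The H3K27ac peaks also sat differently on the start. A peak covered the first base of 6 and 2 members in A673 (2.31% and 2.78% of all genes with a listed start) and of 40 and 33 in CHLA10 (12.5% and 8.60%). Among the 9906 other genes with H3K4me3 at the start in all 4 libraries the shares were 2.68% and 3.32%, then 18.7% and 12.8%, so the 2 members of A673 replicate 2 (3.13%) stood at the level of other genes. With positions upstream of the start written as negative, coverage was greatest at -300 and -200 bp in A673, at 18.8% and 9.38% of members, and at the start in CHLA10, at 62.5% and 51.6%. In the other genes, coverage at -1000 bp was 4.52% and 3.51% in A673, above that at the start. In CHLA10 it was 8.10% and 6.52%, below that at the start. Higher coverage upstream than at the start in A673 was thus not particular to the members. Among peaks with a summit within 1 kb of the start, 20 and 14 in A673 and 52 and 42 in CHLA10, the median summit was at -281 and -201 bp in A673 and at -60.5 and -73 bp in CHLA10. The summit was within 150 bp of the start for 3 and 2 of these peaks in A673 and for 26 and 19 in CHLA10. Summit positions, and the overlap with H3K4me3 that follows, are given for members only. H3K27ac peaks at members overlapped an H3K4me3 peak of the same line in 28 of 40 and 22 of 34 cases in A673 and in 72 of 80 and 55 of 56 in CHLA10.

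**Figure D5:**
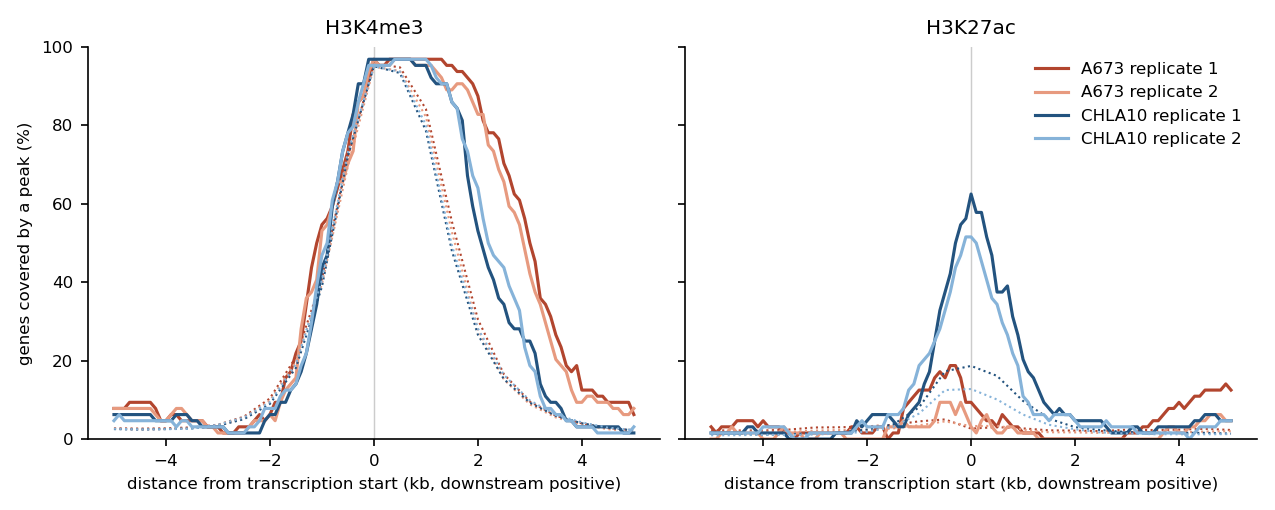
Share of genes covered by a peak (vertical axis, %) by distance from the listed transcription start in kb (horizontal axis, downstream positive), for H3K4me3 (left) and H3K27ac (right). Solid lines are the 64 members with a listed start and dotted lines the 9906 other genes with H3K4me3 at the start in all 4 libraries; H3K27ac covers the start of up to 62.5% of members in CHLA10 and peaks upstream of it in A673.

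Members marked in either library of a line were more often marked in both in CHLA10 than in A673. Such a share rises with the number of members that each library marks, and that number was higher in CHLA10. In A673, 16 members had H3K27ac in both libraries (7.68% of all genes), 34 in a single library and 31 in neither. In CHLA10 the numbers were 47 (17.7% of all genes), 21 and 13. Members marked in both made up 32.0% of those marked in either in A673 and 69.1% in CHLA10, against 30.1% and 53.2% in other genes with H3K4me3 in all 4. The peaks of the 2 libraries overlapped at 13 of the 16 members in A673 (81.3%) and at 45 of the 47 in CHLA10 (95.7%). In other genes with H3K4me3 in all 4 the shares were 76.7% and 92.7%, so the members stood near them.

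H3K27ac was called in CHLA10 only, in both its libraries and in neither of A673, at 17 members (21.0%), where all protein-coding genes gave 8.40% and all genes with H3K4me3 in all 4 libraries 12.9%. Leaving out A673 replicate 1, which drops a condition and so cannot lower the number, gave 32. Leaving out members with a neighbour within 1 kb gave 9 of 51. Among the 17 were RPS2, RPS3, RPS4X, RPS9, RPS26 and RPS27L of the small subunit and, of the large subunit, RPL7, RPL7A, RPL9, RPL12, RPL14, RPL26, RPL28, RPL36, RPL37A and RPL39. At the listed start the CHLA10-only count was 21 of 64 (9.39% of all genes with a listed start) and the A673-only count 0 (1.25%).

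Several of these had peaks near the top of both CHLA10 lists. RPL39, a small protein of the exit tunnel, had percentiles of 97.98 and 97.9 (fold enrichment 12.4 and 12.2), with summits at -287 and -326 bp from the start. RPL9 had 97.6 and 94.98 (13.1 and 11.3), with summits at -52 and -84 bp. RPL7A, the host of 4 snoRNA genes, had 98.7 and 82.6, and RPS9 had 94.9 and 80.3. All 4 had H3K4me3 in the A673 libraries, from the 36.9 percentile at RPL39 in replicate 2 to 93.5 at RPL7A in replicate 2. H3K4me3 was thus called at all 4 in A673, and H3K27ac was not.

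RPS16 (chr19:39433137-39435949), of the small subunit, was the member with H3K27ac in A673 only (2.23% of all genes and 2.03% of those with H3K4me3 in all 4). Its peaks stood at percentiles 81.5 and 88.4, but not at the same place. The peak of replicate 1 was 2717 bp long with a summit at -68 bp, while that of replicate 2 had its summit at 5230 bp, past the end of the gene. Leaving out a library, which drops a condition and so cannot lower the A673-only count, gave 2 to 4 members.

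H3K27ac in all 4 libraries was found at 11 members (13.6%), against 3.96% of all genes and 5.99% of other genes with H3K4me3 in all 4. These were RPS14 of the small subunit and RPL10, RPL13, RPL19, RPL21, RPL23, RPL27A, RPL35A, RPL37, RPL41 and RPLP2 of the large subunit. RPL19 (chr17:39200283-39204732), whose promoter is printed above, ranked highest, with −log10 q values of 23.1 and 10.6 in A673 (percentiles 97.5 and 88.7) and 60.9 and 40.4 in CHLA10 (99.98 and 99.8). Its summits lay at -54, -52, -179 and -178 bp, so all 4 libraries placed the peak at the promoter. RPL41 (chr12:56116633-56117967) had percentiles of 99.2 and 73.0 in A673 and 97.2 and 93.0 in CHLA10. Its strongest peak in A673 replicate 1 had its summit at -1284 bp, and the gene ZC3H10 has a boundary within 1 kb.

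RPS14 (chr5:150442635-150449739), in the region lost in the 5q- form of myelodysplastic syndrome, had percentiles of 73.9 and 82.5 in A673 and 97.9 and 92.7 in CHLA10. Its strongest A673 peaks had summits at 7610 and 7800 bp, past the far end, and its CHLA10 summits were at 11 and -216 bp. RPL35A, mutated in some families with Diamond-Blackfan anaemia, also had its strongest peaks past the far end in A673, at 7797 and 6930 bp (percentiles 96.7 and 82.5). In CHLA10 replicate 1 its strongest peak was at 6934 bp, with a weaker peak at -271 bp. That of CHLA10 replicate 2 was at -240 bp, so both CHLA10 libraries held a peak at its promoter. RPL21 was marked at the promoter in all 4 libraries, with summits at -197, -187, -216 and -200 bp and percentiles of 78.99, 82.5, 94.3 and 57.6. RPS14, RPL35A and RPL21 had the same −log10 q of 8.79 in A673 replicate 2, so many peaks of that list are tied in height. RPL27A had its A673 summits at -483 and -315 bp and its strongest CHLA10 summits at 5428 and 5542 bp. CHLA10 replicate 1 also had a weaker RPL27A peak with its summit 0 bp from the start. A call in every library therefore did not mean the same site in every library.

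RPL23 (chr17:38847860-38853721) had percentiles of 91.1 and 52.7 in A673 and 95.2 and 92.9 in CHLA10. RPLP2 had 71.6 and 29.9 in A673 and 96.3 and 68.9 in CHLA10, and RPL37 had 1.46 and 38.0, then 95.4 and 47.8. RPL13 was the reverse for replicate 1, with 86.2 and 64.0 in A673 against 38.8 and 63.2 in CHLA10. RPL10, whose product helps to form the site of peptide transfer, had 36.4 and 80.0 in A673 and 81.3 and 28.1 in CHLA10. The rank of RPL10 differed more between replicates than between the means of the lines. The 5 highest members by both active marks together were RPS14, RPL41, RPL19, RPL27A and RPLP2.

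No H3K27ac peak was called in any library at 8 members (9.88%), against 52.8% of all genes and 37.7% of other genes with H3K4me3 in all 4. Among the 8 were RPS7, RPS21 and RPS24 of the small subunit, RPL8 of the large subunit, and the paralogs RPL3L, RPL10L and RPL39L. Apart from RPL10L the 8 had H3K4me3 in all 4 libraries. At RPS21 (chr20:62387103-62388520) it stood at percentiles 88.6, 85.2, 96.4 and 93.6, with summits from -82 to -63 bp, and the nearest H3K27ac peak lay 7.67 to 84.4 kb away. RPS21 thus had a high and well placed H3K4me3 peak without H3K27ac. At RPS7 (chr2:3575260-3580920) H3K4me3 stood at 66.0, 69.1, 66.7 and 57.0, and the nearest H3K27ac peak lay 7.505 to 38.0 kb away. At RPS24 (chr10:78033863-78056806) the H3K4me3 values were 78.0, 62.9, 54.7 and 48.7. RPL8 was close to being counted, with a CHLA10 replicate 1 peak 1.199 kb from its boundary.

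Members with H3K27ac in more libraries had a somewhat higher median H3K4me3 rank, with wide overlap. The median of the mean H3K4me3 percentile was 64.7 in the 7 members with H3K4me3 but no H3K27ac, 65.9 in the 10 with it in 1 library, 73.0 in the 29 with 2, 71.1 in the 23 with 3 and 77.7 in the 11 with 4. The ranges ran from 50.8 to 90.9 in the members without H3K27ac and from 57.2 to 97.1 in those with it in all 4. By subunit, H3K27ac was called at 22 and 21 of 49 large-subunit members in A673 and at 42 and 33 in CHLA10. For the 32 small-subunit members the counts were 14 and 9, then 23 and 17. The large-subunit share was the higher in each library, by the least in A673 replicate 1 (44.9% and 43.8%).

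Promoter letters did not sort the acetylated members either. In CHLA10, H3K27ac at the start was called at 38 and 30 of 47 members with a pyrimidine run and at 14 and 12 of 17 without. In A673 the counts were 13 and 11 of 47 with a run and 8 and 4 of 17 without. With CCGGAA in the promoter, 12 and 9 of 35 members were acetylated in A673 and 28 and 23 in CHLA10. Without it the counts were 9 and 6 of 29, then 24 and 19. These counts carry no test, and the largest gap was for the run in A673 replicate 1 (27.7% with it and 47.1% without).

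The 4 paralogs whose symbol ends in L differed from each other in these marks. RPL10L carried none of the 4 marks. RPL3L (chr16:1943974-1954689), the paralog of RPL3 in heart and skeletal muscle, had H3K4me3 at percentiles 49.2, 42.5, 57.3 and 54.4, but these peaks lay 0.112 to 0.234 kb outside its boundary, beside the neighbouring gene MSRB1. RPL39L, a paralog of RPL39 found in testis and some tumours, had H3K4me3 over its boundary at percentiles 40.5 and 33.4 in A673 and 90.1 and 86.5 in CHLA10. RPS27L, a p53 target, had H3K4me3 at 87.9, 85.1, 93.9 and 92.8 and H3K27ac in CHLA10 only, at 90.7 and 32.7. Only RPS27L of these 4 carried H3K27ac in any library.

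H3K4me1 was called at 15 and 3 members in A673 (25.9% and 13.6% of all genes) and at 0 in both CHLA10 libraries (3.93% and 3.55%). There 0 of 81 allows a share of up to 3.70% by 3 counts of the total and up to 4.45% by the Clopper-Pearson interval. Both all-gene shares lay below the Clopper-Pearson limit, while the 3.93% of CHLA10 replicate 1 lay above the other limit. The members' share in CHLA10 was thus not clearly distinguishable from that of all genes. The 2 A673 libraries differed 5-fold at the members, and their lists held 106770 and 43083 peaks. RPL35A was the member with H3K4me1 in both A673 libraries and so in A673 only (7.69% of all genes). Its peaks lay 57 and 81 bp past its boundary, at chr3:197956667-197958382 and chr3:197956691-197959041, with percentiles of 97.0 and 58.4, the same end that held its A673 H3K27ac peaks. In A673 replicate 1, 12 of 16 summits at members with a listed start were more than 1 kb downstream of it, and 7 of 18 peaks overlapped H3K4me3. H3K4me1 calls at the members were thus mostly at the far end of the gene, outside H3K4me3.

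H3K27me3 was called at 0 of 81 members in every library, which allows a share of up to 3.70% by 3 counts of the total and up to 4.45% by the Clopper-Pearson interval, while all genes gave 12.8%, 15.2%, 13.2% and 13.3%. Among genes with H3K4me3 in all 4 libraries the shares were 7.91%, 9.24%, 5.42% and 5.42%. RPL10L, without H3K4me3, was thus also without H3K27me3.

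A HOXD13 peak lay within 1 kb of 2 members in A673 (2.27% of all genes) and of 0 in CHLA10 (0.320%). The A673 peak at RPL23A (chr17:28725106-28725261, 156 bp, −log10 q 16.9, fold enrichment 11.4) was 747 bp outside the gene, which also has the neighbour TLCD1. That at RPL3L (chr16:1943384-1943504, 121 bp, −log10 q 7.01, fold enrichment 6.48) was 470 bp outside the gene on the side of MSRB1. The share of members with HOXD13 (2.47%) was near that of all genes, and neither peak was called in CHLA10.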

How the data were processed

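Peak lists of 18 CUT&RUN libraries were used as the authors deposited them, 1 list per library, with no pooled replicates. Per the submitters' processing notes the tools were Bowtie2, MACS2, bedtools and SEACR 1.2 on hg38, with no role or order stated. For each peak the authors deposited, in the caller's narrow-peak layout (broad for H3K27me3), a score, a fold enrichment (a ratio over background), −log10 p and −log10 q values and, in narrow lists, a summit. The list names say that H3K4me3, H3K27ac and H3K4me1 were called against IgG and H3K27me3 without a control, that histone lists were filtered, and that only CHLA10 histone lists were "kept", a step not explained in the sources used here. The 4 IgG libraries were not used. Read depth is unknown.

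Gene boundaries, promoters and starts came from RefSeq tables on GRCh38.p14, with 64 of 81 members holding a listed start. A gene was marked when a peak overlapped by at least 1 bp the window of 1 kb on each side of either boundary. Peaks and genes were joined with Python 3.11.15, pandas 2.3.3, numpy 2.4.6 and scipy 1.17.1. The overlap and reach code was tested on simulated data. Shares have exact Clopper-Pearson 95% intervals, and with 2 libraries per group no test between lines was made. A mark in 1 line only means both libraries of that line and neither of the other.

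Members and comparison lists were chosen with earlier results of these data known, and the counts by peak rank, the pseudogenes and the alternative without members that have a neighbour within 1 kb were added after the data were seen. Genes named are those with H3K27ac in all 4 or in no library, marked in 1 line only, lacking H3K4me3, with a HOXD13 peak, the 5 highest by H3K4me3 and H3K27ac percentile, and the paralogs ending in L; others are said to be chosen after their values were seen. Some members and markers that this rule covers are counted but not reported singly here.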

Additional observations from a re-analysis of the deposited data

How the results depend on the processing

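Of 226 alternative values for 32 results, 183 stayed within the interval of the share or within 1.5 times the count, and 43 moved. The 183 include values that could not move. A count of 0 stays 0 when peaks, windows or genes are only taken away, and the shortest list of a mark is unchanged with equal peak numbers. Both CHLA10 libraries stayed above both A673 libraries for H3K27ac under every alternative run, by 6.17 points with windows of 2.5 kb to 32.8 points at the start alone.

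With windows of 2.5 kb, H3K27ac in A673 replicate 1 rose to 59.3% of members (60.0% of those with H3K4me3), H3K4me1 to 45.7% and 18.5% in A673 and 7.41% and 4.94% in CHLA10, and the counts in 1 line only were 9 for H3K27ac in CHLA10 and 8 for H3K4me1 in A673. At the start alone, A673 had H3K27ac at 32.8% and 23.4% (24.2% in replicate 2 of those with H3K4me3), H3K4me1 at 6.25% and 0%, and HOXD13, A673-only H3K27ac and A673-only H3K4me1 at 0. With at least 200 bp of overlap, A673 HOXD13 and A673-only H3K27ac were 0. In the upper 50% of each list by q, where the share over all genes was not computed, H3K4me3 fell to 67.9% and 76.5% in A673. There 13 members had it in CHLA10 only. H3K27ac there was at 29.6% in A673 replicate 1 and 64.2% and 45.7% in CHLA10 (31.9% in A673 replicate 1 and 68.1% in CHLA10 replicate 1 of those with H3K4me3), H3K4me1 at 7.41% in A673 replicate 1, and the longer A673 reach at 27 of 36 members. With equal peak numbers, A673 had H3K27ac at 32.1% and 22.2% (32.5% and 22.5% of those with H3K4me3), H3K4me1 at 1.23% in replicate 1 and HOXD13 at 0. Without members that have a neighbour within 1 kb, added after the data were seen, A673 HOXD13 was 0 and CHLA10-only H3K27ac was 9 of 51.

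Leaving out each library in turn gave 18 to 32 CHLA10-only and 2 to 4 A673-only members for H3K27ac (the 32 without A673 replicate 1), 1 to 15 A673-only members for H3K4me1 (15 without A673 replicate 2, 3 without A673 replicate 1), 44 to 49 members with the longer A673 reach and 57 to 62 with the higher CHLA10 H3K4me3 percentile. Leaving out a library drops a condition from each of these counts, so they could only stay or rise. The cause of the other moves was not tested. No paired analysis was possible because the results are counts from peak lists and come from no test. Read depth is unknown, and at 2 libraries a line the spread is poorly known.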
